A study of Mus musculus with 12 samples.

Results

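Nuclear RNA of spinal cord microglia collected 14 days after spinal cord injury was compared with that of sham-operated mice, gene by gene over the whole count table. The comparison used 6 of the 12 libraries of the series, namely all 3 labelled 14 days post injury (14 dpi; replicates 1, 2 and 3) and all 3 labelled sham (replicates 2, 3 and 4), and it covered all 49585 genes of the table. The other 6 libraries, 3 at 3 dpi and 3 at 7 dpi, shared the fit and served for direct contrasts with the earlier times. All mice were C57BL/6, and each library pooled the cord within 5 mm on both sides of the injury from 3 animals, per the labels. Age, genetic deletion and drug treatment are not among the labels that formed the groups, so none of them is compared here. The sham libraries carry the label of 7 days after surgery, so that no sham group of the same delay as 14 dpi was used here. Nuclei were released from the tissue, purified on an iodixanol gradient and captured with anti-GFP beads, and the labels do not name the promoter or line that drives the GFP.

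Microglia are the resident macrophages of the central nervous system. In an intact cord they keep a surveying state maintained by colony-stimulating factor and TGF-beta signals and marked by purinergic receptors such as P2ry12. After injury they and infiltrating macrophages gather at the lesion, clear myelin and cell debris, and, together with astrocytes and fibroblasts, form the border of the scar. Debris is rich in cholesterol, and its handling calls on lysosomal hydrolases, lipid-binding proteins and sterol exporters. The title of the series concerns Plexin-B2, a receptor for class 4 semaphorins that acts on the cytoskeleton through small GTPases. The comparison addresses how the microglial transcriptome stands 14 days after the lesion.

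The 6 libraries held between 4003480 and 7064757 counts, and 18451 genes passed the filter on low counts and were tested. Microglial markers were present in every library, given in CPM (counts divided by the TMM-scaled library size and scaled up alike in all libraries). The receptor Csf1r stood at 1383, 1285 and 874 CPM in sham replicates 2, 3 and 4 and at 1110, 1341 and 1132 CPM in 14 dpi replicates 1, 2 and 3. The identity factor Sall1 stood at 338 CPM or more in each of the 6 libraries. Aif1 was lower, at 112, 32.2 and 12.3 CPM in sham and at 19.7, 29.2 and 19.4 CPM at 14 dpi. Transcripts of neurons and astrocytes were also abundant, and their sums are given below. All values per library below follow that order of replicates. The Csf1r difference of 0.02 ± 0.17 on the log2 scale (± SE throughout, edgeR adjusted p = 0.968) had no stable sign. Sham replicate 4 stood apart from the other libraries, with a score of 119.8 on the second principal component against at most 26.75 in any other library. Sham replicate 2 had the lowest score of all libraries on the first component (-70.34). The 3 sham libraries correlated with each other at 0.8795 to 0.9437, and the 3 libraries at 14 dpi at 0.972 to 0.9793. The pools also differed in sex: the female-specific transcript Xist stood at 17870, 3608 and 8225 CPM in sham and at 15220, 7670 and 0.891 CPM at 14 dpi, so the sexes are mixed across both groups. Since each library is a pool, p-values measure the spread between these pools.

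At an adjusted p below 0.05 in edgeR's quasi-likelihood test, 927 genes were higher at 14 dpi than in sham (5.02% of the genes tested) and 884 were lower (4.79%). The median log2 fold change over all tested genes was -0.05. These 5.02% and 4.79% are the background against which the counts for each gene group below are set. The gene lists were chosen with earlier results of these data known, so a list count above this background is no independent test. The totals moved with the libraries used: leaving out 1 library at a time gave between 438 genes higher (without 14 dpi replicate 3) and 1361 (without sham replicate 4), and between 263 lower (without 14 dpi replicate 3) and 1432 (without sham replicate 4). In bulk nuclei, more cells of a type and more RNA per cell cannot be told apart, and this holds for every difference described here.

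Among genes past the threshold whose groups did not overlap and whose mean was at least 10 CPM, the largest rise was that of Gpnmb, a transmembrane glycoprotein of phagocytes engaged with lipid and lysosomal load, which lies at chr6:49036546-49070929. It stood at 1.36, 2.29 and 1.96 CPM in sham and at 347, 494 and 359 CPM at 14 dpi. The lowest 14 dpi library thus lay far above the highest sham library, and the rise came to 7.77 ± 0.42 on the log2 scale (edgeR adjusted p = 1.57e-07). Stra6l, a homologue of the retinol transporter Stra6 (chr4:45848664-45887008), followed under the same limits with 1.06, 0.686 and 1.96 CPM in sham against 85.8, 72.7 and 69 CPM at 14 dpi (5.98 ± 0.35). Trpc4, a calcium-permeable cation channel (chr3:54156035-54318471), stood at 0.454, 2.29 and 0.84 CPM in sham and at 40.7, 32.5 and 33 CPM at 14 dpi (4.94 ± 0.54). Spp1, which encodes the secreted phosphoprotein osteopontin (chr5:104435118-104441050), stood at 5.6, 13.3 and 13.2 CPM in sham and at 177, 267 and 186 CPM at 14 dpi (4.34 ± 0.41). Cspg4, the chondroitin sulfate proteoglycan NG2 (chr9:56865033-56899870), stood at 2.57, 5.26 and 2.52 CPM against 57.1, 75.3 and 73.5 CPM (4.32 ± 0.33).

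The 16 largest rises by this rule also held Fam20c, a kinase of secreted proteins (4.24 ± 0.38), the chemokine receptor Cxcr4 (3.99 ± 0.37), heparanase Hpse (3.74 ± 0.58), lipoprotein lipase Lpl (3.70 ± 0.29), fibronectin Fn1 (3.62 ± 0.50) and the macrophage elastase Mmp12 (3.44 ± 0.55). Lrguk (3.31 ± 0.34), the lipid carrier Apoe (3.31 ± 0.30), the fusion receptor Dcstamp (3.30 ± 0.59), the integrin alpha chain Itgax (3.29 ± 0.26) and the organic anion transporter Slco1c1 (3.22 ± 0.65) completed them. All 16 were past the threshold in each of the alternatives run. The sham side was less even than the 14 dpi side for several: Fn1 stood at 19.7, 17.1 and 72.2 CPM in sham and at 442, 418 and 462 CPM at 14 dpi, Hpse at 0.454, 1.14 and 5.88 against 28.9, 29.7 and 31.2 CPM, and Slco1c1 at 1.06, 2.74 and 6.72 against 29.8, 28.1 and 33.9 CPM. In these 3 genes sham replicate 4 was the highest sham library. Slco1c1 averaged 18.7 CPM at 3 dpi and 2.31 CPM at 7 dpi, and the summed endothelial level, given below, was also low at 7 dpi. The part of endothelial RNA in the rise of Slco1c1 was not tested.

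**Figure D1:**
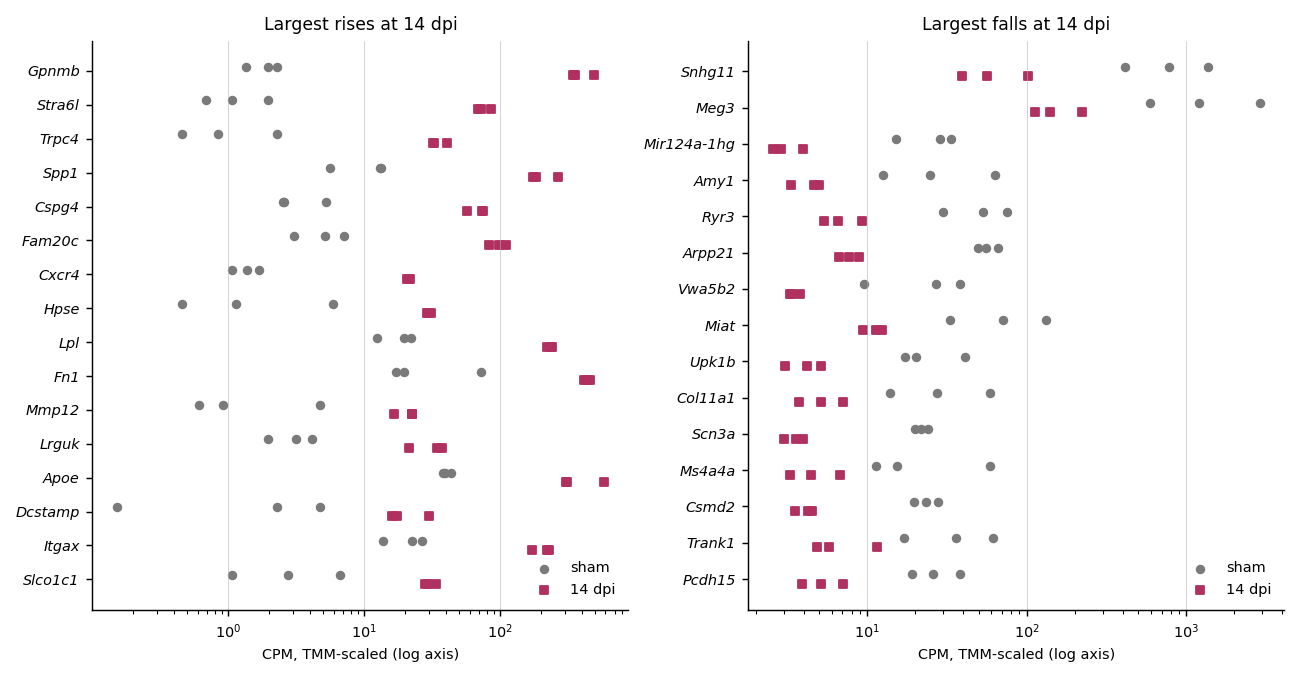
CPM per library on a logarithmic axis for the 16 largest rises and for falls described in the text, among the 16 largest, at 14 dpi against sham; circles are the 3 sham libraries and squares the 3 libraries at 14 dpi. Gpnmb moves from 1.36 to 2.29 CPM in sham to 347 to 494 CPM at 14 dpi, and the groups do not overlap for any gene shown, which the naming rule required.

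Genes of the damage-associated state, a programme of phagocytic microglia known from neurodegeneration, were mostly higher. Of the 30 listed genes, all tested, 25 rose and none fell, against 5.02% and 4.79% of all genes, and the median log2 fold change was 2.09. The count of risen members was 22 to 27 in all alternatives. Beside Gpnmb, Spp1, Lpl, Apoe and Itgax, the risen members included Cst7, an inhibitor of cathepsins, at 1.36, 2.52 and 1.4 CPM in sham and 12.1, 16.4 and 20.9 CPM at 14 dpi (3.22 ± 0.39, edgeR adjusted p = 0.000166). The beta-glucan receptor Clec7a went from 16.5, 6.63 and 16.2 CPM to 94.9, 85.3 and 87.8 CPM (2.76 ± 0.41), and the receptor tyrosine kinase Axl, which binds phosphatidylserine through Gas6, from 56.5, 123 and 143 CPM to 497, 515 and 538 CPM (2.27 ± 0.30). In both genes the lowest 14 dpi library lay far above the highest sham library. The fatty acid-binding protein Fabp5 rose by 3.05 ± 0.46, the galectin Lgals3 by 2.51 ± 0.42, the tetraspanin Cd9 by 1.81 ± 0.18 and the inhibitory receptor Lilrb4a by 1.22 ± 0.23. Trem2, the receptor at the head of this programme, did not pass the test, with 294, 336 and 128 CPM in sham and 281, 398 and 336 CPM at 14 dpi (0.42 ± 0.28, edgeR adjusted p = 0.365), and neither did its adaptor Tyrobp at 141, 54.2 and 23 CPM against 46.6, 76 and 44.3 CPM (-0.41 ± 0.43).

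**Figure D2:**
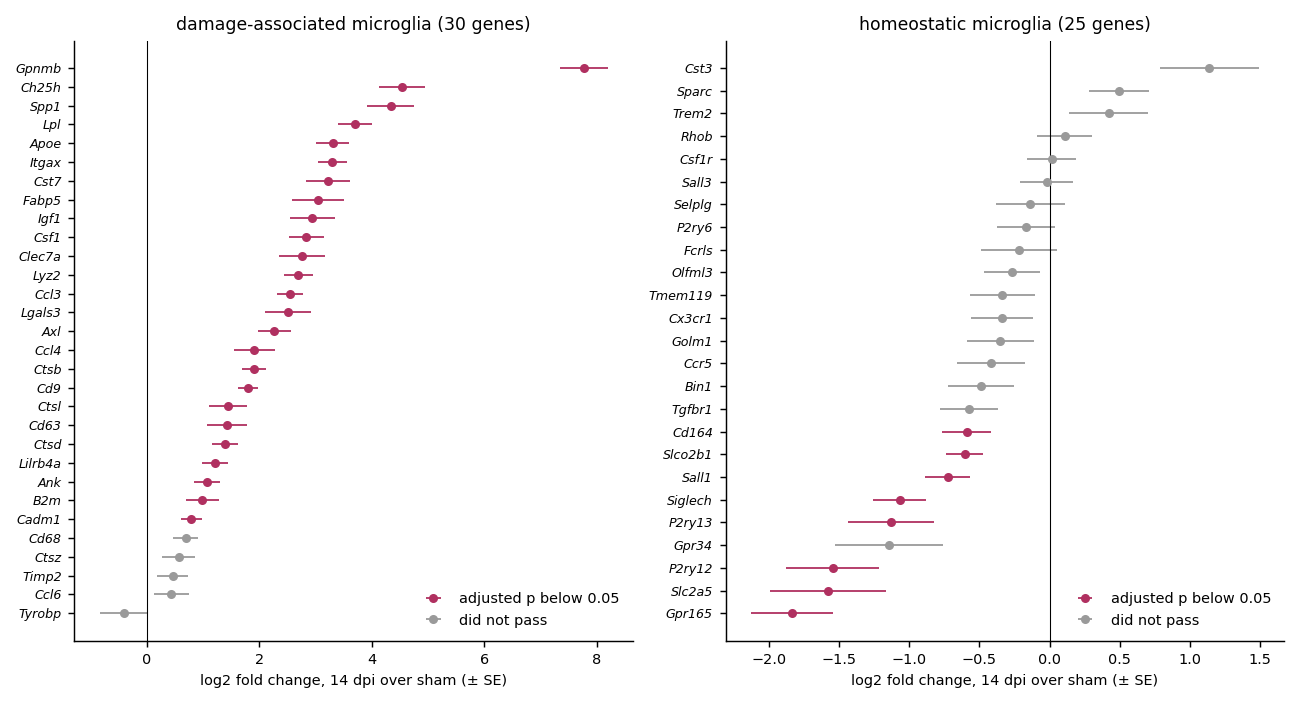
Log2 fold change at 14 dpi against sham, with bars of ± 1 SE, for the 30 genes of the damage-associated list and for genes of the homeostatic list; colour marks genes past the adjusted p threshold. In the first list 25 genes lie past the threshold on the right, in the second 8 lie past it on the left.

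At this threshold the homeostatic list held falls and no rises. Of 26 tested members none rose and 8 fell, with a median of -0.35, and 18 did not pass. P2ry12, the ADP receptor that guides microglial processes, stood at 663, 328 and 639 CPM in sham and at 174, 234 and 151 CPM at 14 dpi (-1.54 ± 0.33, edgeR adjusted p = 0.00952). The sialic acid-binding lectin Siglech stood at 1492, 1035 and 1239 CPM in sham and at 542, 656 and 599 CPM at 14 dpi (-1.07 ± 0.19), and the orphan receptor Gpr165 at 61.8, 52.4 and 58.5 against 18.2, 15.9 and 14 CPM (-1.84 ± 0.29). The groups did not overlap in these 3 genes. Sall1, a transcription factor that sets microglial identity, stood at 653, 592 and 550 CPM in sham and at 338, 384 and 363 CPM at 14 dpi (-0.73 ± 0.16), and the fructose transporter Slc2a5 fell by 1.58 on the log2 scale. Members without a call at this threshold included Tmem119 (133, 233 and 172 CPM in sham, 140, 160 and 126 CPM at 14 dpi) and the fractalkine receptor Cx3cr1 (309, 268 and 252 against 194, 270 and 191 CPM). The number of members that fell was 4 with the 2 groups fitted alone, 3 with limma on RPKM, and 3, 5 and 2 without 14 dpi replicate 1, 2 and 3 respectively, and P2ry12 and Sall1 lost their calls without 14 dpi replicate 1 or 3 (adjusted p at most 0.0595 and 0.0633). Slc2a5 kept its call in 7 of 14 alternatives. The number of members that rose was 1 with no filter, with the replicate block, in DESeq2, and without sham replicate 2 or 4 or 14 dpi replicate 3.

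Among 18 identity and state transcription factors 3 rose and 2 fell (median -0.15). Bhlhe40, a basic helix-loop-helix repressor, had the largest rise, from 9.69, 13.5 and 10.9 CPM in sham to 104, 104 and 100 CPM at 14 dpi (3.18 ± 0.22, edgeR adjusted p = 1.56e-06). Egr1 rose by 1.20 ± 0.23 and Irf8 by 0.77 ± 0.20, the latter losing its call in 5 alternatives, each 14 dpi library left out among them. Maf, a factor of tissue macrophages, stood at 539, 376 and 729 CPM in sham and at 250, 271 and 251 CPM at 14 dpi (-1.09 ± 0.21). Of 19 immediate early and heat shock genes 4 rose and none fell: Atf3, an activating transcription factor of stressed cells, went from 7.27, 6.86 and 5.32 CPM to 32.5, 38.3 and 43.2 CPM (2.53 ± 0.23), and Egr2, Jund and Egr1 also rose. Jund lost its call without 14 dpi replicate 2.

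Part of the lipid handling genes, which serve uptake, storage and export, rose. Of 27 listed genes 12 rose, 1 fell and 14 did not pass, with a median of 0.96, while of 22 genes of cholesterol synthesis none passed in either direction and the median was -0.03. The lists of lipid handling, damage-associated and lysosomal genes share members. Lpl, which releases fatty acids from lipoproteins, stood at 12.6, 22.2 and 19.9 CPM in sham and at 237, 224 and 244 CPM at 14 dpi. Apoe, the main apolipoprotein of the brain, stood at 38.3, 43.7 and 39.8 CPM in sham and at 312, 586 and 306 CPM at 14 dpi. The sterol exporters Abca1 (284, 283 and 296 against 991, 923 and 1102 CPM, 1.80 ± 0.17) and Abcg1 (20.3, 14.4 and 16 against 93.3, 89.1 and 101 CPM, 2.47 ± 0.24) rose with little spread in either group. Ch25h, which makes 25-hydroxycholesterol, went from 0.757, 0.914 and 0.28 CPM to 13.1, 17.1 and 18.9 CPM (4.54 ± 0.42). The cholesterol esterifying enzyme Soat1 rose by 1.37 ± 0.20 and the lipid droplet coat protein Plin2 by 1.60 ± 0.36. Vldlr, a lipoprotein receptor, was the member that fell (-1.21 ± 0.34). Of the synthesis genes, Hmgcs1 stood at 39.5, 60.6 and 60.5 CPM in sham and at 54.7, 39 and 44.1 CPM at 14 dpi. At an unadjusted p below 0.05 in edgeR, 2 synthesis genes were higher and 2 lower, and DESeq2 called 0 in either direction. Vldlr kept its call in 6 of 14 alternatives and Plin2 lost its call without 14 dpi replicate 3.

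**Figure D3:**
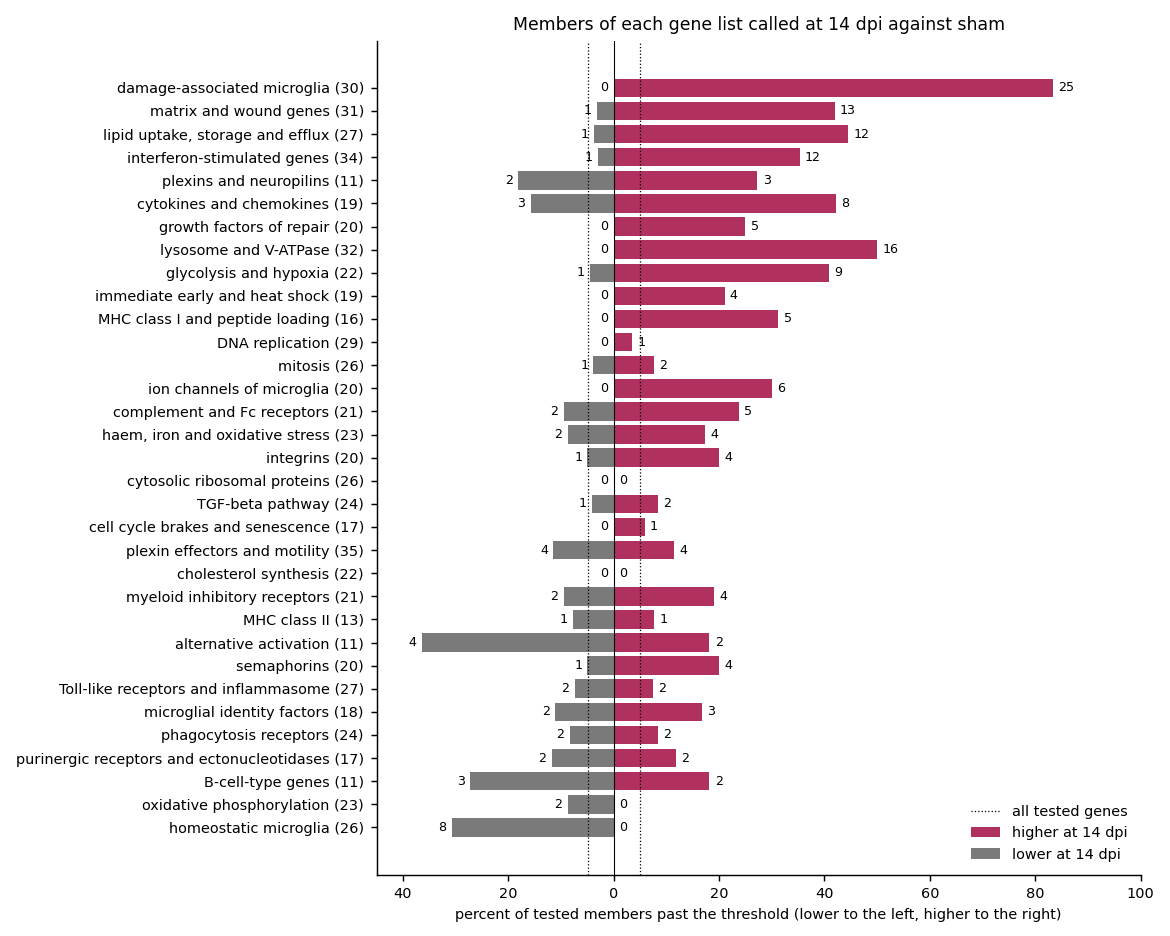
Percent of the tested members of each gene list that were higher (right) or lower (left) at 14 dpi than in sham, with the counts beside the bars; dotted lines mark the 5.02% higher and 4.79% lower among all genes tested. The damage-associated list has the longest bar to the right with 25 of 30 genes, and the cholesterol synthesis and ribosomal protein lists have no bar on either side. The lists were chosen with earlier results of these data known.

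Of 32 tested lysosomal genes 16 rose, none fell and 16 did not pass, with a median of 0.62. Ctsb, the cysteine protease cathepsin B, stood at 105, 135 and 131 CPM in sham and at 391, 634 and 367 CPM at 14 dpi (1.91 ± 0.22, edgeR adjusted p = 0.000105). Ctsd, the aspartyl protease cathepsin D, stood at 170, 124 and 135 CPM in sham and at 256, 560 and 310 CPM at 14 dpi (1.39 ± 0.23). In both genes 14 dpi replicate 2 was the highest library and all 3 libraries at 14 dpi lay above sham. Fnip2, a partner of folliculin in nutrient sensing at the lysosome, went from 129, 158 and 180 CPM to 509, 540 and 525 CPM (1.75 ± 0.16, edgeR adjusted p = 1.55e-05). Among subunits of the proton pump, Atp6v1a stood at 80.4, 96.9 and 114 CPM in sham and at 185, 204 and 192 CPM at 14 dpi (1.00 ± 0.17), and Atp6v0d2, a subunit of macrophages and osteoclasts, at 4.39, 2.06 and 8.4 against 25.3, 21.5 and 21.4 CPM (2.23 ± 0.58). The membrane protein Lamp2 (277, 265 and 428 against 376, 443 and 403 CPM) and the cholesterol exporter Npc1 (148, 197 and 239 against 226, 247 and 243 CPM) did not pass. The count of 16 became 8 with the 2 groups fitted alone, 7 without 14 dpi replicate 2 and 10 without 14 dpi replicate 3.

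Many lysosomal genes are known to carry the palindrome TCACGTGA, bound by the transcription factors TFEB and TFE3, before their start, and the 250 bases before the RefSeq start (GRCm38.p6) were searched for it. It was present in 5 of the 26 tested lysosomal list genes with a promoter in the RefSeq table (Ctsa, Ctsd, Gla, Atp6v1a and Mcoln1), and in 3 of the 12 risen members with a promoter. Over all 32851 promoters the share was 0.785%, and over the 11424 tested genes with a promoter it was 1.59%. The stretches of Ctsd (chr7:142387828-142388077, minus strand) and Atp6v1a (chr16:44139260-44139509, minus strand), 2 risen members described above, are shown 5′ to 3′ with the palindrome in capitals, 99 and 132 bases before the start. A match describes the letters and is no measure of binding.
Ctsd: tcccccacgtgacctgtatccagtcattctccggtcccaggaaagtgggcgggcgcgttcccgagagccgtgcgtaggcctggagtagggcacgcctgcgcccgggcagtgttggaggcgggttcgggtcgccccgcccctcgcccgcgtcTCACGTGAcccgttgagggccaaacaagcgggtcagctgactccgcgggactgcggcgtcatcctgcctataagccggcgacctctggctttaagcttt
Atp6v1a: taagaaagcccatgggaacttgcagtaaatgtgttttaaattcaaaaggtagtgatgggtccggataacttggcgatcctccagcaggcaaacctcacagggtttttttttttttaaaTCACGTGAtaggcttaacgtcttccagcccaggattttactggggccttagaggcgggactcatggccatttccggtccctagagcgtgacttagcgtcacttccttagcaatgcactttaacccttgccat

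Receptors that recognise debris and dying cells did not move as a group. Of 24 phagocytosis genes 2 rose (Cd300lf and Axl) and 2 fell (Stab1 and Elmo1), with a median of -0.22. Cd300lf, an inhibitory receptor for phosphatidylserine, stood at 13.9, 15.8 and 12 CPM in sham and at 109, 112 and 152 CPM at 14 dpi (3.15 ± 0.21, edgeR adjusted p = 1.13e-06). Stab1, a scavenger receptor, stood at 516, 505 and 510 CPM in sham and at 262, 245 and 288 CPM at 14 dpi (-0.95 ± 0.14), and the engulfment adaptor Elmo1 at 1102, 974 and 1280 against 536, 568 and 552 CPM (-1.02 ± 0.18). Mertk, the main receptor for apoptotic cells, stood at 2224, 823 and 852 CPM in sham and at 995, 986 and 1011 CPM at 14 dpi, with sham replicate 2 far above the rest, and did not pass. Of 21 complement and Fc receptor genes 5 rose and 2 fell. The anaphylatoxin receptor C3ar1 went from 102, 96.9 and 112 CPM to 202, 219 and 209 CPM (1.02 ± 0.16), and C1qc, Itgax, C3 and Serping1 were also higher, whereas properdin, Cfp, stood at 14.4, 12.3 and 14 CPM against 6.03, 4.91 and 5.57 CPM (-1.29 ± 0.27) and Fcgr3 was lower by -0.83 ± 0.22. The count of 5 risen genes was 2 or 3 on leaving out any 14 dpi library, and C3, Serping1 and Fcgr3 lost their calls in each of these fits and C1qc in that without 14 dpi replicate 2.

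Myeloid inhibitory receptors were divided, with 4 of 21 higher and 2 lower. Beside Cd300lf and Lilrb4a, the checkpoint receptor Pdcd1 (PD-1) rose from 2.88, 2.97 and 3.92 CPM to 12.4, 14.3 and 12.7 CPM (2.02 ± 0.30, edgeR adjusted p = 0.000853) and its ligand Cd274 (PD-L1) from 30.3, 32.5 and 77.8 CPM to 92.2, 113 and 100 CPM (1.13 ± 0.30). Siglech and Clec4a2 fell. Cd33, the most abundant member, stood at 1635, 1378 and 2562 CPM in sham and at 1150, 1217 and 1221 CPM at 14 dpi (-0.64 ± 0.20, edgeR adjusted p = 0.0579). All 3 libraries at 14 dpi were below the 3 sham libraries, and the difference missed the threshold. Both Cd274 and Clec4a2 lost their calls with the 2 groups fitted alone and without 14 dpi replicate 1 or 3, and Cd274 also without 14 dpi replicate 2 or sham replicate 2 or 3.

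In the guidance families, Plxnb2 itself did not pass the test. It stood at 318, 343 and 260 CPM in sham and at 274, 296 and 299 CPM at 14 dpi, with overlapping ranges, and the difference of -0.08 ± 0.16 (edgeR adjusted p = 0.792) changed sign in 3 alternatives. Its 95% interval, taken as normal around the estimate, ran from -0.40 to 0.24. Other plexins and neuropilins moved: of 11 tested genes 3 rose and 2 fell, with a median of 0.74. Nrp1, a co-receptor for class 3 semaphorins and VEGF, stood at 100, 102 and 103 CPM in sham and at 219, 225 and 208 CPM at 14 dpi (1.10 ± 0.15, edgeR adjusted p = 0.000389), and Nrp2 at 104, 89.6 and 132 against 184, 196 and 208 CPM (0.85 ± 0.18). Plxnc1, the receptor of Sema7a, went from 26.9, 33.6 and 40.3 CPM to 99.2, 90.2 and 89.5 CPM (1.47 ± 0.22). Plxnb3 stood at 42.4, 39.5 and 27.1 CPM in sham and at 13, 12.4 and 15.6 CPM at 14 dpi (-1.42 ± 0.25), and Plxna4 at 213, 293 and 326 against 167, 161 and 158 CPM (-0.77 ± 0.20). The call of Plxna4 was lost on leaving out sham replicate 3 or any 14 dpi library, with adjusted p up to 0.106. Plxnd1 (12, 23.3 and 26 against 43.4, 29 and 57.7 CPM) and Plxna2 (38, 49.4 and 52.6 against 62.5, 58.4 and 61 CPM) did not pass.

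Of 20 semaphorins 4 rose and 1 fell, with a median of -0.09. Sema4d, a ligand of the B-type plexins, stood at 170, 186 and 140 CPM in sham and at 260, 288 and 252 CPM at 14 dpi (0.69 ± 0.17, edgeR adjusted p = 0.0182). Sema7a went from 4.54, 4.12 and 4.48 CPM to 15.2, 9.58 and 12.9 CPM (1.52 ± 0.38), Sema3b from 1.51, 1.37 and 4.48 CPM to 12.5, 8.18 and 10.2 CPM (2.13 ± 0.49), and Sema3g was higher as well. Sema4g, another class 4 member, stood at 138, 200 and 136 CPM in sham and at 98.6, 85.6 and 94.7 CPM at 14 dpi (-0.76 ± 0.23). The calls in this family were weak: 1, 2 and 2 semaphorins were higher without 14 dpi replicate 1, 2 and 3, and Sema4g was called in 6 of 14 alternatives.

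Effectors of plexins and of motility split evenly, with 4 of 35 higher and 4 lower. The scaffold Iqgap1 stood at 58.4, 59.7 and 61 CPM in sham and at 176, 173 and 196 CPM at 14 dpi (1.60 ± 0.20, edgeR adjusted p = 0.000213), the actin-severing protein Cfl1 at 38.5, 31.6 and 28 against 72.8, 94.4 and 65.5 CPM (1.24 ± 0.20), and the plexin-bound oxidase Mical1 at 9.99, 12.8 and 6.44 against 28.9, 24.8 and 26.7 CPM (1.45 ± 0.27). Dock10, an exchange factor for Cdc42 and Rac, was abundant and lower, at 3401, 2516 and 3450 CPM in sham and 1631, 1633 and 1628 CPM at 14 dpi (-0.94 ± 0.17). Rock2, Arhgap5 and Pak1 were lower too. The 4 lower genes became 1 on leaving out any 14 dpi library, and the 4 higher genes became 7 without sham replicate 4. Among 20 integrins Itgax, Itgb1, Itga5 and Itgal rose, and Itga9 stood at 125, 113 and 118 CPM in sham and 45.7, 46.5 and 46.5 CPM at 14 dpi (-1.36 ± 0.24). Of the integrins 7 were higher without sham replicate 4, and 1 or 2 were higher on leaving out any other library.

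Few class II antigen presentation genes passed. Of 13 genes the invariant chain Cd74 rose, from 19.1, 34.3 and 58.5 CPM to 113, 108 and 84.9 CPM (1.47 ± 0.31, edgeR adjusted p = 0.00848), and H2-Ob, a modulator of peptide loading, stood at 54.6, 37 and 28.6 CPM against 20.9, 20.8 and 15.6 CPM (-1.07 ± 0.25), a call lost without 14 dpi replicate 3. The class II chain H2-Aa stood at 15.6, 17.4 and 25.8 CPM in sham and at 28.3, 20.6 and 21.2 CPM at 14 dpi (0.27 ± 0.25) and did not pass. Of 16 class I and peptide loading genes 5 rose and none fell, with a median of 0.47. Nlrc5, the transactivator of class I genes, stood at 53.1, 44.8 and 27.1 CPM in sham and at 117, 122 and 140 CPM at 14 dpi (1.59 ± 0.23, edgeR adjusted p = 0.000746). H2-Q4, H2-Q6 and H2-Q7 rose with it, but these are near-identical copies among which reads could be split, so the value of each copy is uncertain. The classical heavy chain H2-K1 stood at 257, 162 and 59.4 CPM in sham and at 214, 232 and 230 CPM at 14 dpi and did not pass.

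Of 34 tested interferon-stimulated genes 12 rose, 1 fell and 21 did not pass, with a median of 0.82, and 32 had a fold change above 0. Irf7, the factor that amplifies type I interferon, stood at 9.23, 9.37 and 5.04 CPM in sham and at 17.3, 19.6 and 19.4 CPM at 14 dpi (1.23 ± 0.25, edgeR adjusted p = 0.00783). Ifit2, which binds foreign RNA, went from 6.66, 8.46 and 7 CPM to 20.5, 18.2 and 29.4 CPM (1.62 ± 0.27), Rsad2 (viperin) from 2.73, 2.29 and 1.96 CPM to 5.88, 10.5 and 9.8 CPM (1.86 ± 0.38), and the chemokine Cxcl10 from 0.757, 1.14 and 3.08 CPM to 9.34, 12.6 and 13.6 CPM (2.94 ± 0.41). The guanylate-binding protein Gbp7 was the member that fell, from 63.4, 61.3 and 89 CPM to 32.2, 27.1 and 29.9 CPM (-1.25 ± 0.26). Stat2, the most abundant of those not past the threshold, stood at 111, 169 and 154 CPM in sham and at 180, 163 and 187 CPM at 14 dpi. The count of 12 became 5 with the 2 groups fitted alone and 6 without 14 dpi replicate 2 or 3, and the calls of Irf7, Ifit2, Rsad2 and Cxcl10 were kept in the latter 2 fits.

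The core of the interferon-stimulated response element, searched as GAAANNGAA on both strands of the same 250-base stretches, was present in 15 of the 25 interferon list genes with a promoter and in 4 of the 9 risen members with a promoter (Ifit3, Rsad2, Ifih1 and Cxcl10). The share over all promoters was 7.13% and over tested genes with a promoter 7.73%. Of these 4 risen members, Ifit3 kept its call in 7 and Ifih1 in 6 of 14 alternatives, and both lost it on leaving out any 14 dpi library. Rsad2 (chr12:26456453-26456702, minus strand) and Cxcl10 (chr5:92348890-92349139, minus strand) had the largest rises among these 4 and are shown 5′ to 3′ with the match in capitals. In Rsad2 the match lies on the other strand, 119 bases before the start, and in Cxcl10 it lies 213 bases before the start.
Rsad2: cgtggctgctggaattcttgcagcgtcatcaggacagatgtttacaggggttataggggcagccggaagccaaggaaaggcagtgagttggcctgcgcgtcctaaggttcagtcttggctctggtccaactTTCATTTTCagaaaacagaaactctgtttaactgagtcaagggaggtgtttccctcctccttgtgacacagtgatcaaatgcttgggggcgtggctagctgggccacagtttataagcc
Cxcl10: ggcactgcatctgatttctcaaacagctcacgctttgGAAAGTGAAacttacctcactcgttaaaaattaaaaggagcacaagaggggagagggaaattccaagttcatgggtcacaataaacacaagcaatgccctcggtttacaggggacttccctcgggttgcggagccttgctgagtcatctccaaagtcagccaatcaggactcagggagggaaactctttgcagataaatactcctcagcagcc

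Of 19 tested cytokines and chemokines 8 rose, 3 fell and 8 did not pass, with a median of 0.72. The CC chemokine Ccl3 stood at 10.9, 11.4 and 12.3 CPM in sham and at 62.5, 67.3 and 72.6 CPM at 14 dpi (2.55 ± 0.23, edgeR adjusted p = 1.55e-05). Il1rn, the secreted antagonist of interleukin 1, had no count in any sham library and 35, 22 and 22 counts at 14 dpi, which is at least 24.9-fold higher against a floor of 3 counts over the sham group. Cxcl16 went from 24.8, 36.8 and 21 CPM to 79.9, 69 and 80.9 CPM (1.47 ± 0.24), and Tnfsf8 (CD30 ligand) from 8.32, 7.77 and 14.6 CPM to 50.5, 44 and 47.7 CPM (2.23 ± 0.26). Tnf, Ccl4 and Ptgs2 were also higher, at under 20 CPM in every library, and Ptgs2 lost its call on leaving out any 14 dpi library. Il1b, by contrast, stood at 8.48, 10.74 and 10.4 CPM in sham and at 10.8, 10.5 and 12.7 CPM at 14 dpi (0.21 ± 0.34) and did not pass. The cytokine Il6 (15.6, 9.83 and 12.3 against 3.47, 3.74 and 4.9 CPM, -1.65 ± 0.38), Il18 (-0.92 ± 0.22) and Tnfsf13b (BAFF, -1.07 ± 0.30) were lower. The count of 3 lower genes was 0 without 14 dpi replicate 1 or 2, 1 without 14 dpi replicate 3 and 5 without sham replicate 2.

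Pattern recognition genes showed no common direction. Of 27 Toll-like receptor and inflammasome genes 2 rose and 2 fell, with a median of -0.10. Tlr2, the receptor for lipoproteins, stood at 38, 25.8 and 17.6 CPM in sham and at 58.9, 72.9 and 61.7 CPM at 14 dpi (1.23 ± 0.27, edgeR adjusted p = 0.00992), and the NF-kB inhibitor Tnfaip3 at 54.2, 65.2 and 55.7 against 110, 112 and 119 CPM (0.96 ± 0.24). Tlr5, the flagellin receptor, stood at 45.3, 37.5 and 48.1 CPM in sham and at 14.9, 10.3 and 8.91 CPM at 14 dpi (-1.93 ± 0.35), and Tlr3 at 129, 107 and 242 against 67.5, 79 and 73.1 CPM (-1.12 ± 0.26). The calls of Tlr3 and Tnfaip3 were lost without 14 dpi replicate 1 or 3. Of 11 genes of alternative activation 2 rose and 4 fell, among them the mannose receptor Mrc1 (222, 187 and 376 against 121, 54.7 and 86 CPM, -1.58 ± 0.42), the haemoglobin scavenger receptor Cd163 (116, 84.6 and 192 against 47.2, 23.1 and 28.3 CPM, -1.98 ± 0.46) and the lectin Mgl2 (-1.96 ± 0.46). Of the fallen genes, Mrc1 and Cd163 are also in the list of border-associated macrophage markers, described below. The number of fallen genes was 0 without 14 dpi replicate 2 or 3 and 2 without replicate 1. The 2 genes that rose, Socs2 and Tgm2, lost their calls on leaving out sham replicate 3 or any 14 dpi library.

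Growth factors of repair rose in 5 of 20 cases and fell in none, with a median of 0.65. Igf1, a trophic factor of neurons and oligodendrocytes, stood at 15.4, 15.8 and 60.5 CPM in sham and at 215, 243 and 235 CPM at 14 dpi (2.95 ± 0.40, edgeR adjusted p = 0.000463). Csf1, the ligand of Csf1r and a survival factor of microglia, went from 20, 38.6 and 63 CPM to 263, 272 and 324 CPM (2.84 ± 0.30). Pdgfa went from 17.4, 34.1 and 32.8 CPM to 57.6, 81.3 and 64.2 CPM (1.28 ± 0.24), the hepatocyte growth factor Hgf rose by 1.29 ± 0.29 and Bmp6 by 2.58 ± 0.54. In Igf1 and Csf1 sham replicate 4 was the highest sham library, and without it 8 growth factors were called higher.

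In the matrix and wound repair list of 31, 13 were higher, 1 was lower and 17 did not pass, with a median of 0.98. Plau, the urokinase protease, stood at 17.4, 19.7 and 16.5 CPM in sham and at 94.9, 90.5 and 93.1 CPM at 14 dpi (2.38 ± 0.21, edgeR adjusted p = 1.3e-05), and its receptor Plaur at 4.24, 5.26 and 6.72 against 36.2, 36.7 and 44.3 CPM (2.87 ± 0.31). Postn, the matricellular protein periostin, went from 7.12, 7.54 and 7.56 CPM to 53, 58 and 60.1 CPM (2.94 ± 0.32). The integrin-binding glycoprotein Thbs1 rose by 2.10 ± 0.39 and the membrane protease Adam8 by 2.00 ± 0.36. Vcan, the proteoglycan versican, stood at 49, 53.3 and 51.8 CPM in sham and at 22.1, 22.4 and 22.5 CPM at 14 dpi (-1.20 ± 0.20). Without sham replicate 4, in which matrix genes were higher than in the other sham libraries, 24 genes rose in place of 13, and the count was 20 with no filter and 9 with the 2 groups fitted alone or without 14 dpi replicate 1 or 2. In the TGF-beta pathway the co-receptor Tgfbr3 (2.45 ± 0.47) and the latency protein Ltbp4 (2.61 ± 0.54) rose and the co-receptor Eng fell (-1.27 ± 0.33), of 24 genes. Tgfb1 stood at 81.7, 70.4 and 54 CPM in sham and at 86.7, 95.1 and 99.1 CPM at 14 dpi and did not pass. The call of Eng was lost without sham replicate 4 or any 14 dpi library, and 4 genes of the pathway were higher without sham replicate 4. Summed fibroblast and pericyte markers, which rose in the same libraries, are given below, and their part in the matrix values was not tested.

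Ion channels and nucleotide receptors held several genes nearly silent in sham. Of 20 channels 6 rose and none fell, with a median of 0.41, and the count was 5 to 7 in all alternatives. Beside Trpc4, the inward rectifier Kcnj2 stood at 105, 111 and 197 CPM in sham and at 336, 354 and 348 CPM at 14 dpi (1.33 ± 0.23), the chloride channel protein Clic4 at 25.4, 29.9 and 32.5 against 91.8, 87.9 and 90 CPM (1.62 ± 0.22), and the calcium channel subunit Cacna1a at 73.6, 81.8 and 59.6 against 176, 162 and 200 CPM (1.32 ± 0.17, edgeR adjusted p = 0.000307). Cacna1d and the proton channel Hvcn1 also rose. Mcoln3, a cation channel of endosomes and lysosomes, had 1 count over the 3 sham libraries and 280 counts at 14 dpi (0, 0.229 and 0 CPM against 16.9, 19.4 and 18.9 CPM). The ratio of summed counts per TMM-scaled total was 265, with a 95% interval of 47.1 to 10490 that covers counting error only. Of 17 purinergic genes the ATP-gated channel P2rx4 rose, from 92.5, 101 and 83.4 CPM to 216, 247 and 222 CPM (1.30 ± 0.18, edgeR adjusted p = 0.000481). P2ry2 rose as well, with 1 sham count against 51 at 14 dpi. P2ry12 and P2ry13 (241, 210 and 458 against 119, 183 and 114 CPM, -1.13 ± 0.31) fell, and these calls were lost without 14 dpi replicate 1 (P2ry12) and without sham replicate 4 or 14 dpi replicate 1 (P2ry13), and for both without 14 dpi replicate 3.

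Iron genes included Slc11a2, an iron importer, at 55.2, 66.8 and 40 CPM in sham and 127, 145 and 143 CPM at 14 dpi (1.35 ± 0.21, edgeR adjusted p = 0.00132), and the ferritin light chain Ftl1 at 36.8, 41.6 and 20.2 against 102, 158 and 97.1 CPM (1.85 ± 0.32). The iron exporter Slc40a1 stood at 146, 107 and 138 CPM in sham and at 73.2, 55.6 and 61.3 CPM at 14 dpi (-1.04 ± 0.25). The oxidase subunit Cybb and Srxn1 rose, so that 4 of 23 genes of this list were higher and 2, Slc40a1 and Cd163, were lower. The 2 lower calls were lost without 14 dpi replicate 2 or 3, and that of Srxn1 without 14 dpi replicate 1 or 2. Hmox1, the haem-degrading enzyme, stood at 13.8, 6.4 and 4.48 CPM in sham and at 13, 22 and 18 CPM at 14 dpi (1.03 ± 0.34, edgeR adjusted p = 0.0678).

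Glycolysis genes rose in 9 of 22 cases and 1 fell, with a median of 0.55, and the count higher was 6 to 11 in the alternatives. Pkm, the last enzyme of glycolysis, stood at 110, 139 and 116 CPM in sham and at 272, 277 and 258 CPM at 14 dpi (1.15 ± 0.17, edgeR adjusted p = 0.000947). Lactate dehydrogenase Ldha went from 20, 30.2 and 24.6 CPM to 62.7, 72.2 and 58.8 CPM (1.38 ± 0.22), Gapdh from 17.3, 21.3 and 26.6 CPM to 57.1, 60.3 and 56.6 CPM (1.43 ± 0.26), Pfkl from 17.4, 20.6 and 10.9 CPM to 39, 44.2 and 44.5 CPM (1.37 ± 0.24), and the glucose transporter Slc2a1 from 21.6, 28.8 and 70.3 CPM to 115, 135 and 112 CPM (1.60 ± 0.35). The hexokinase Hk3 was the member that fell (-0.67 ± 0.18), a call kept in 7 of 14 alternatives. Nuclear-encoded subunits of the respiratory chain did not share this, with none of 23 higher and Cox4i1 (-1.23 ± 0.36) and Cox5a (-1.12 ± 0.32) lower, both of which lost their calls in 8 of 14 alternatives. None of 26 cytosolic ribosomal protein genes passed in either direction, with a median of 0.15 (6 higher and 0 lower at an unadjusted p below 0.05 in edgeR, 2 higher in DESeq2), and Rpl4 stood at 92.8, 90.8 and 93.8 CPM in sham and at 109, 145 and 102 CPM at 14 dpi. The 37 mitochondrial rows of the table hold no counts.

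Few proliferation genes passed the test. Of 26 mitosis genes 2 rose and 1 fell, and of 29 DNA replication genes 1 rose, with medians of 0.43 and 0.46. The kinetochore motor Cenpe stood at 26, 20.8 and 33.6 CPM in sham and at 39.2, 41.8 and 50.6 CPM at 14 dpi (0.71 ± 0.19, edgeR adjusted p = 0.0256), Aurka rose by 1.76 ± 0.46 from at most 1.37 CPM, and Cenpf stood at 47.2, 35.4 and 105 against 26.5, 22 and 31.6 CPM (-1.22 ± 0.32). The replication checkpoint gene Clspn rose by 1.46 ± 0.41. All 4 calls were lost without 14 dpi replicate 1 or 2, and the number of mitosis genes higher was 5 without sham replicate 4.

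A small set of genes usually associated with B lymphocytes changed in these nuclei, with 2 of 11 higher and 3 lower in every alternative run. Cd22, an inhibitory lectin, stood at 4.54, 9.83 and 5.04 CPM in sham and at 50.8, 52.1 and 62.1 CPM at 14 dpi (3.10 ± 0.31, edgeR adjusted p = 3.69e-05), and the repressor Bcl6 at 37.8, 41.6 and 40 against 77.9, 87.9 and 93.1 CPM (1.11 ± 0.17). The adaptor Bank1 stood at 131, 123 and 197 CPM in sham and at 46.6, 28.1 and 35.2 CPM at 14 dpi (-2.03 ± 0.29), and the immunoglobulin heavy chain transcripts Ighm at 229, 422 and 552 against 97.7, 124 and 117 CPM (-1.83 ± 0.29) and Ighd at 45, 58.1 and 84.8 against 15.4, 14.3 and 15.4 CPM (-2.05 ± 0.37). The B and plasma cell markers, 13 genes with Ighm among them, summed to 400.3, 612 and 627 CPM (per plain library total) in sham and to 272, 296 and 280 CPM at 14 dpi (ratio 0.517, exact permutation p = 0.1), and 1 of 4 tested members, Ighm, was lower. Without Ighm the other 12 summed to 186, 159 and 135 CPM against 170, 165 and 156 CPM (ratio 1.02, exact permutation p = 0.8). The defining gene Cd79a had 19 counts over all 6 libraries. The part of B cells in these values was not tested.

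The 16 largest falls included the long noncoding RNAs Snhg11 and Meg3, both abundant in neurons. Snhg11 (chr2:158375638-158386145) stood at 1367, 777 and 412 CPM in sham and at 56.5, 102 and 39.2 CPM at 14 dpi (-3.70 ± 0.44, edgeR adjusted p = 0.000153), and Meg3 (chr12:109541001-109571726) at 2899, 1194 and 590 against 139, 222 and 113 CPM (-3.31 ± 0.46). Other genes with known neuronal expression among the 16 were the host gene of the neuronal microRNA 124, Mir124a-1hg (-3.06 ± 0.46), the calcium release channel Ryr3 (-2.88 ± 0.38), Arpp21 (-2.88 ± 0.31), the long noncoding RNA Miat (-2.84 ± 0.44) and the sodium channel Scn3a (-2.64 ± 0.38). Arpp21 was even within groups, at 49.6, 66.3 and 55.7 CPM in sham and at 7.69, 8.88 and 6.68 CPM at 14 dpi. Amy1, Vwa5b2, Upk1b, Col11a1, Ms4a4a, Csmd2, Trank1 and Pcdh15 were also among them, between -2.95 and -2.40, and of these Ms4a4a and Trank1 lost their calls in 4 and 3 alternatives.

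Transcripts of other cell types are given here as sums over marker lists. Of 20 neuronal markers none was higher and 6 were lower (median -0.81), and their summed level (here and below per plain library total) was 5699, 4320 and 4122 CPM in sham and 1803, 2328 and 1501 CPM at 14 dpi, a ratio of 0.398 (exact permutation p = 0.1, the smallest that 3 against 3 libraries can give). Meg3 and Snhg11 are 2 of these 20 markers and carried much of the sum: the other 18 summed to 1710, 2202 and 3228 CPM in sham and to 1597, 1986 and 1341 CPM at 14 dpi, with overlapping groups (ratio 0.690, exact permutation p = 0.2). Within sham, Meg3 and Snhg11 were highest in replicate 2 and lowest in replicate 4, and the sum of the other 18 had the reverse order. Of all 20 markers 1 had a fold change above 0, and Gad1, Gad2 and Syn1 were among the 6 lower ones. Snap25, the most abundant synaptic one, stood at 668, 950 and 2058 CPM in sham and at 676, 819 and 607 CPM at 14 dpi and did not pass. The count of 6 became 2 with the 2 groups fitted alone, 3 with limma on RPKM, and 3, 3 and 2 without 14 dpi replicate 1, 2 and 3. The part of neuronal RNA in the falls above was not tested.

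Endothelial markers had 4 of 15 higher and 1 lower, with a median of 1.86 and a summed level of 107, 144 and 427 CPM in sham against 691, 699 and 683 CPM at 14 dpi (ratio 3.06, exact permutation p = 0.1). The VEGF receptor Flt1 stood at 10.9, 8.23 and 54 CPM in sham and at 202, 200.1 and 212 CPM at 14 dpi (3.11 ± 0.57), and Kdr at 6.96, 5.71 and 5.6 against 19.7, 20.3 and 19.6 CPM (1.69 ± 0.26). Fibroblast and pericyte markers summed to 79.1, 129 and 583 CPM in sham and to 798, 877 and 767 CPM at 14 dpi (ratio 3.09, exact permutation p = 0.1), with 1 of 15 genes, Cspg4, past the threshold and a median of 1.14. Sham replicate 4 carried most of the vascular and fibroblast signal of its group: without it the ratios were 5.49 and 7.83, and 11 endothelial and 11 fibroblast and pericyte markers were higher. With no filter 11 endothelial markers were higher, and with limma on RPKM 9 and 8 (pseudocounts 1 and 0.1). Cspg4 is also a marker of oligodendrocyte precursors, whose other 12 markers held no rise and 1 fall, that of Vcan. In sham replicate 4, where the fibroblast and pericyte sum was 583 CPM, Cspg4 stood at 2.52 CPM, the lowest of the 3 sham values. At 7 dpi Cspg4 averaged 40.4 CPM and that sum 156 CPM.

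Astrocyte markers had 4 of 18 higher, among them Gfap at 51.6, 82.3 and 140 CPM in sham and 426, 355 and 392 CPM at 14 dpi (2.10 ± 0.35, edgeR adjusted p = 0.00216) and the gap junction protein Gja1 at 11.8, 10.5 and 10.1 against 37.7, 31.6 and 44.3 CPM (1.80 ± 0.35). Their summed level overlapped between the groups, at 1163, 2407 and 5643 CPM against 3772, 3348 and 3640 CPM (exact permutation p = 0.7), and the ratio of 1.17 became 2.01 without sham replicate 4, when 8 markers were higher. The count of 4 was 2 on leaving out any other library. Myelin markers summed to 1038, 2193 and 1937 CPM in sham and to 1430, 1778 and 1207 CPM at 14 dpi, with none of 17 higher and Mobp and Aspa lower. Aspa kept its call in all 14 alternatives and Mobp in 8 of 14, losing it without 14 dpi replicate 1 or 3 among others.

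Blood-derived and border cells gave different pictures. Monocyte-derived macrophage markers summed to 226, 246 and 466 CPM in sham and to 1183, 1232 and 1110 CPM at 14 dpi (ratio 3.76, exact permutation p = 0.1), and 5 of 13 genes rose and 1, Vcan, fell, the rises led by Fn1 and by lysozyme, Lyz2 (45.1, 46 and 47.9 against 312, 382 and 208 CPM, 2.70 ± 0.26). Both are also expressed by activated microglia, and without them the other 16 markers summed to 165, 178 and 359 CPM against 391, 386 and 406 CPM (ratio 1.69, exact permutation p = 0.1). Ccr2, the monocyte chemokine receptor, stood at 14.1, 8.92 and 9.52 CPM in sham and at 15.8, 8.18 and 13.6 CPM at 14 dpi (0.20 ± 0.37), and Ly6c2 had 11 counts over the 6 libraries. The count of 5 was 3 without sham replicate 3 or any 14 dpi library. Border-associated macrophage markers had 6 of 11 lower and none higher, with a median of -1.35 and summed levels of 1004, 1071 and 1289 CPM against 714, 534 and 668 CPM (ratio 0.569, exact permutation p = 0.1). They include Mrc1, Cd163 and Stab1, and the count of 6 was 1 without 14 dpi replicate 2 or 3. T and NK cell markers summed to at most 12.9 CPM in any of the 6 libraries. Neutrophil markers summed to 564, 760.2 and 646 CPM in sham and to 877, 962 and 1031 CPM at 14 dpi (ratio 1.46, exact permutation p = 0.1), with none of 5 tested genes past the threshold in edgeR (1 higher and 0 lower at an unadjusted p below 0.05, 0 in DESeq2). Nearly all of that sum was Csf3r, the receptor of granulocyte colony-stimulating factor, at 594, 699.5 and 716 CPM against 822, 898 and 970.1 CPM (0.42 ± 0.18, edgeR adjusted p = 0.15). The other 12 neutrophil markers summed to 7.93, 8.35 and 7.49 CPM in sham and to 12.7, 11.2 and 11.9 CPM at 14 dpi, and the defining genes S100a8 and Ly6g had 14 and 3 counts over all 6. Dendritic cell markers summed to 1666, 1400 and 1394 CPM in sham and to 952, 1073 and 1019 CPM at 14 dpi (ratio 0.683, exact permutation p = 0.1), most of it Siglech. The other 11 were higher at 14 dpi, at 382, 378 and 389 CPM against 271, 287 and 288 CPM (ratio 1.36, exact permutation p = 0.1), and of 9 tested genes Cadm1 rose (0.80, a call lost without 14 dpi replicate 1 or 3) and Siglech fell. Ependymal markers were low, at 11.3, 21.6 and 23.5 CPM in sham and 58.8, 69.4 and 65.8 CPM at 14 dpi (ratio 3.44, exact permutation p = 0.1), with 1 of 6 tested genes, Nnat, higher (2.19). The part of these cells in the gene groups above was not tested.

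**Figure D4:**
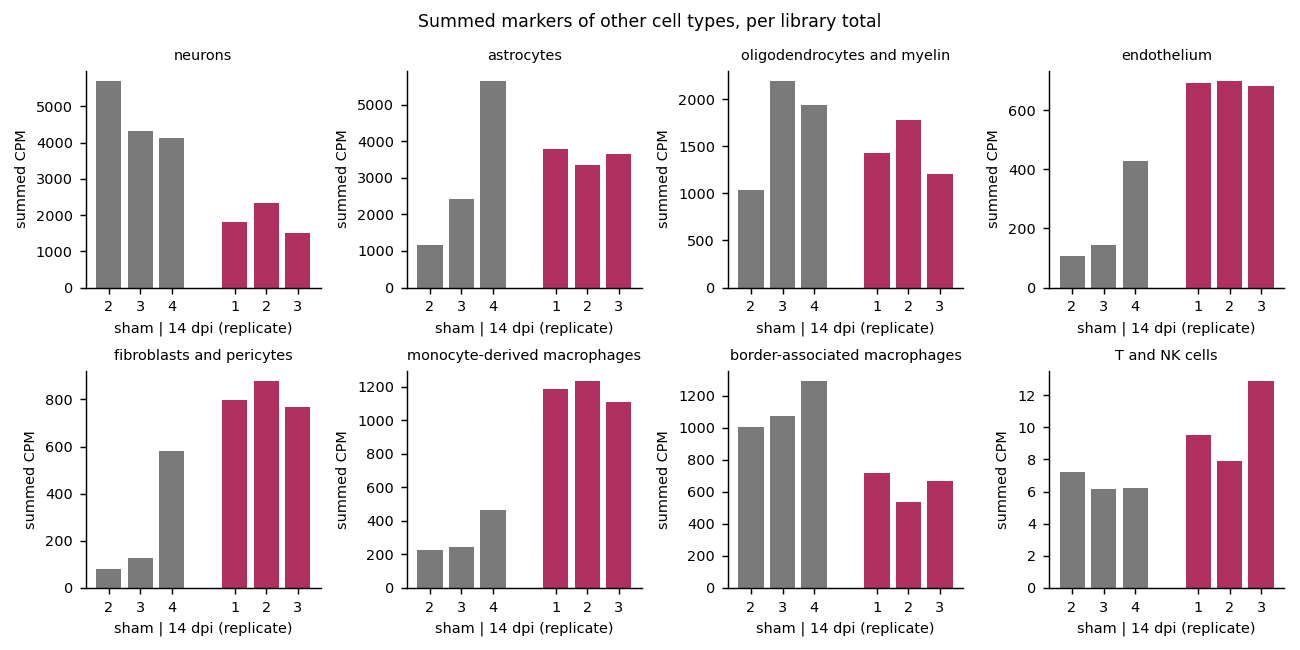
Summed CPM of marker genes of 8 other cell types in each of the 3 sham and 3 14 dpi libraries; each bar is 1 library. Neuronal markers, Meg3 and Snhg11 included, and border-associated macrophage markers are lower in all 3 libraries at 14 dpi than in any sham library, endothelial, fibroblast and pericyte, and monocyte-derived markers are higher, and sham replicate 4 is the highest sham library for the astrocyte, endothelial and fibroblast sums.

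Direct contrasts showed how 14 dpi stands against the earlier times. Against 3 dpi, 401 genes were higher (2.17%) and 948 lower (5.14%) at 14 dpi, and against 7 dpi 250 genes were higher (1.35%) and 154 lower (0.835%). All groups share 1 fit and each contrast uses the same 3 libraries at 14 dpi, so the values below are set side by side only. Leaving out 1 library moved these counts strongly, to between 79 and 292 higher and 323 and 562 lower against 3 dpi, and to between 1 and 187 higher and 0 and 114 lower against 7 dpi.

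The proliferative programme separated 14 from 3 dpi. All 26 mitosis genes were lower at 14 than at 3 dpi (median -2.64), as were 21 of 29 DNA replication genes (median -1.38), and none of either list passed against 7 dpi. Cenpe averaged 26.8 ± 6.43 CPM in sham (SD, n = 3), 319 CPM at 3 dpi, 51.8 CPM at 7 dpi and 43.9 ± 5.95 CPM at 14 dpi (SD, n = 3). Kif18b, a mitotic kinesin, was among the 5 largest falls from 3 dpi (-3.68 on the log2 scale). Interferon-stimulated genes had 23 of 34 lower at 14 than at 3 dpi and none higher, with a median of -1.40, and 5 lower than at 7 dpi. Rsad2 averaged 51.5 CPM at 3 dpi, 14 CPM at 7 dpi and 8.73 ± 2.50 CPM at 14 dpi (SD, n = 3), and Irf7 52.4, 37.1 and 18.8 CPM. Slfn4, a schlafen gene of myeloid cells, averaged 55.3 CPM at 3 dpi and 1.25 CPM at 14 dpi (-5.33, edgeR adjusted p = 0.00018), and Hmox1 227 and 17.7 CPM (-3.69, edgeR adjusted p = 4.5e-05). Plxnb2 averaged 468 CPM at 3 dpi, 354 CPM at 7 dpi and 290 CPM at 14 dpi, lower at 14 than at 3 dpi by -0.69 (edgeR adjusted p = 0.0193), a call lost on leaving out any 1 of the 6 libraries of these 2 times, and by -0.29 against 7 dpi (edgeR adjusted p = 0.378).

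The damage-associated genes were not at a common point of their course. Of 30 genes 7 were higher and 3 lower at 14 than at 3 dpi, and 1 was higher than at 7 dpi. Lpl averaged 61.2 CPM at 3 dpi, 148 CPM at 7 dpi and 235 CPM at 14 dpi (1.94 against 3 dpi, edgeR adjusted p = 0.00052), Itgax 67, 114 and 208 CPM (1.63) and Apoe 158, 254 and 402 CPM (1.35). Spp1 had the opposite order of means between 3 and 14 dpi, at 585, 176 and 210 CPM (-1.48, edgeR adjusted p = 0.018), and Ch25h stood at 37, 15.8 and 16.4 CPM (-1.18). Gpnmb, at 320.2, 461 and 400.1 CPM, passed against neither time. Against 7 dpi the member that passed was Lyz2 (144 CPM at 7 dpi and 300.4 CPM at 14 dpi, edgeR adjusted p = 0.035). The calls of Spp1 and Ch25h against 3 dpi were lost without 3 dpi replicate 2 or 14 dpi replicate 1 or 3, that of Apoe without 3 dpi replicate 3, and that of Lyz2 against 7 dpi without 7 dpi replicate 1 or 3 or 14 dpi replicate 1 or 2.

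The 5 largest rises from 3 dpi were in Trpc4 (2.8 CPM at 3 dpi, 15.6 CPM at 7 dpi and 35.4 CPM at 14 dpi, 3.66 ± 0.47 against 3 dpi), Postn (5.19, 14 and 57 CPM, 3.42), Mcoln3 (1.64, 12.8 and 18.4 CPM, 3.39), Atp6v0d2 (3.61, 11.9 and 22.7 CPM, 2.57) and the sialyltransferase St8sia6 (18.3, 33 and 74.3 CPM, 2.00). Postn also passed against 7 dpi (2.03, edgeR adjusted p = 0.013), and so did St8sia6 (1.18, edgeR adjusted p = 0.047). St8sia6 against sham stood at 35.1, 29.9 and 56.3 CPM versus 72.6, 83 and 67.3 CPM (0.88 ± 0.29, edgeR adjusted p = 0.0639). Against 7 dpi the call of St8sia6 was lost on leaving out any 1 of the 6 libraries of these 2 times, and that of Postn without 7 dpi replicate 1 or 14 dpi replicate 1. The call of Atp6v0d2 against 3 dpi was lost without 3 dpi replicate 2 or 14 dpi replicate 1. Mirg and Vwa5b2 were with Slfn4, Hmox1 and Kif18b the 5 largest falls from 3 dpi (-4.97 and -3.78).

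Against 7 dpi, the 5 largest rises by the same rule were the endothelial and pericyte genes Erg (4.34), Slco1a4 (4.27), Tek (4.14), Adgrf5 (4.14) and Rgs5 (3.91), and 9 of 15 endothelial markers, 6 of 18 astrocyte markers and 3 of 15 fibroblast and pericyte markers were higher at 14 dpi. The summed endothelial level averaged 712 CPM at 3 dpi, 112 CPM at 7 dpi and 691 CPM at 14 dpi, so the libraries at 7 dpi and 2 of the 3 sham libraries were low in these transcripts. Each of the 5 calls was lost on leaving out any 14 dpi library. Among the 5 largest falls, Cnbd2 (-3.07), Snhg8 (-2.79), Snhg11 (-2.42) and Ankle1 (-2.41) lost their calls without 7 dpi replicate 1 or 3 and without 14 dpi replicate 1 or 3. The part of vascular RNA in the differences from 7 dpi was not tested.

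**Figure D5:**
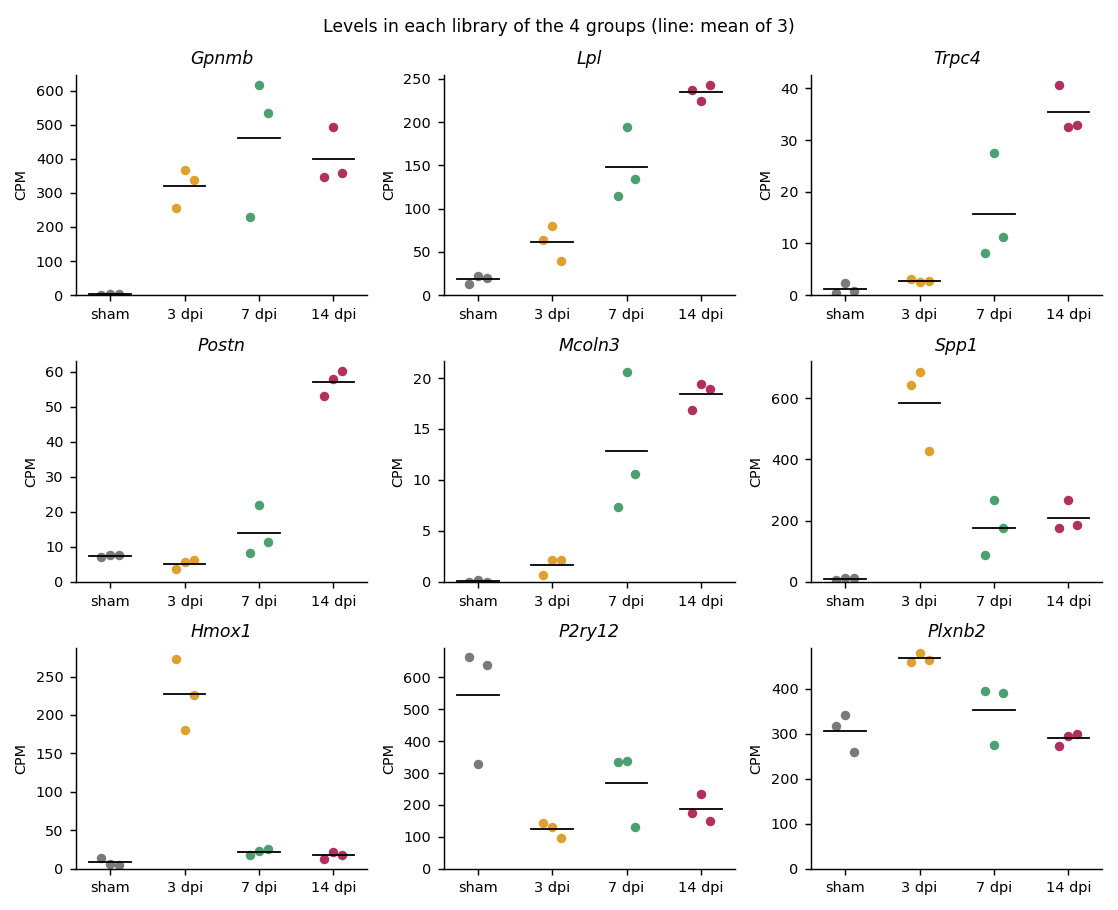
CPM per library (points) and group mean (line) in sham, 3, 7 and 14 dpi for Gpnmb, Lpl, Trpc4, Postn, Mcoln3, Spp1, Hmox1, P2ry12 and Plxnb2. The group means of Lpl, Trpc4, Postn and Mcoln3 are highest at 14 dpi, those of Spp1 and Hmox1 at 3 dpi, and Plxnb2 at 14 dpi (290 CPM) lies near its sham mean of 307 CPM.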

How the data were processed

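Nuclear RNA was amplified as cDNA by single primer isothermal amplification and sequenced in pairs of 50 bases, per the labels' protocols. The authors deposited a table of gene counts made with featureCounts 1.4.6-p3 on GRCm38 (mm10), per the submitters' processing notes, and a table of RPKM that the authors deposited for the same genes. The sources used here give neither aligner nor strand setting nor the handling of multi-mapping reads, so that antisense, overlapping and near-identical genes cannot be told apart. Of 49585 genes 15460 had no counts. Library totals ran from 4003480 to 7064757 counts in the 6 libraries compared.

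Counts of all 12 libraries were fitted in 4 groups with edgeR 4.0.16 (R 4.3.3), using filterByExpr, TMM scaling, the quasi-likelihood test and Benjamini-Hochberg adjustment over all 18451 tested genes, with calls at an adjusted p below 0.05. The SE of a log2 fold change was derived from the F statistic, CPM of single genes use TMM-scaled totals of the tested genes as denominators, and summed marker levels use plain library totals. Summed marker levels were compared with exact two-sided permutation tests. Alternatives tried were a fit of the 2 groups alone, a replicate block, DESeq2 1.42.0, median-ratio scaling, a stricter filter, no filter at all, limma 3.58.1 on log2 of RPKM with pseudocounts of 1 and 0.1, and each library left out in turn. The scripts were tested on simulated data. Fold changes from RPKM are on the log2(value + pseudocount) scale.

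The gene lists and members were chosen with earlier results of these data known. Genes were named by a rule: the 16 largest rises and falls past the threshold with groups that do not overlap and a mean of at least 10 CPM (5 each against 3 and 7 dpi), up to 5 called members per list by adjusted p, and up to 3 members without a call by abundance. Some genes the rule names are not reported here. A further 33 genes outside the rule, named to account for counts or as known members of a programme, were chosen after their values were seen: Adam8, Arhgap5, C3, Ccl4, Cd274, Cd9, Clec7a, Cst7, Cx3cr1, Fabp5, Fcgr3, Gla, Hk3, Hvcn1, Ifih1, Ifit3, Il18, Il6, Lgals3, Pak1, Plin2, Ptgs2, Rock2, Slc2a5, Soat1, Srxn1, Tgm2, Tmem119, Tnf, Tnfsf13b, Trem2, Tyrobp and Vldlr. Promoter letters are from RefSeq (GRCm38.p6), and gene positions from GENCODE M21. Marker sums without sham replicate 4, and without the leading members of a list, were added after their levels were seen.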

Additional observations from a re-analysis of the deposited data

How the results depend on the processing

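Of 179 named genes called against sham and followed over the alternatives, 121 kept their call in every alternative and 0 changed direction. The calls of Mcoln3, Atp6v0d2, Gad1, Gad2 and Syn1 against sham were not followed in this way. The 927 genes higher and 884 lower became 528 and 397 with the 2 groups alone and 1321 and 1501 with no filter, and the lower genes became 542 and 480 with limma on RPKM (pseudocounts 1 and 0.1). Leaving out 1 library gave 438 to 1361 genes higher and 263 to 1432 lower. With a replicate block 936 were higher and 597 lower. The labels do not say that shared numbers pair the samples. The correlation of deviations was 0.035 and 0.018 for numbers 2 and 3, which cannot settle whether they do. Against 3 dpi, 401 higher became 692 with no filter, 2133 with 2 groups alone, 750 with DESeq2 and 79 to 292 on leaving out 1 library, and 948 lower became 2753 with 2 groups alone and 323 to 562 on leaving out 1 library. Against 7 dpi, 250 higher became 836 with no filter, 850 with the replicate block, 938 with 2 groups alone, 617 with DESeq2 and 1 to 187 on leaving out 1 library, and 154 lower became 726, 758, 889, 444 and 0 to 114 in the same order. The difference of Plxnb2 against sham ran from -0.21 to 0.0086 on leaving out 1 library, above 0 without sham replicate 3, and turned to 0.052 and 0.054 with limma on RPKM (pseudocounts 1 and 0.1). That of Csf1r turned to -0.028 with the replicate block and ran from -0.18 (without sham replicate 4) to 0.13 on leaving out 1 library, below 0 also without 14 dpi replicate 2 (-0.061). That of Mertk ran from -0.63 to 0.24 (without sham replicate 2), and that of Tyrobp from -0.84 to 0.50 (without sham replicate 2), turning to 0.067 and 0.072 with limma on RPKM. The Schwann cell sum ratio turned from 0.960 to 1.04 without sham replicate 4, that of B and plasma cells to 1.02 without Ighm and that of dendritic cells to 1.36 without Siglech. The cause was not tested, except that leaving out a library leaves fewer samples. With 4003480 counts in the smallest library, genes under 1 CPM rest on few reads.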
